A study of Mus musculus with 4 samples.

Results

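The genes of MHC class I described here were 7 nonclassical and 1 classical heavy chain, the light chain *B2m*, and *Nlrc5*, which encodes the transactivator of class I promoters. They were taken by symbol from the annotation of the array's probe sets, as 10 genes of 22180 with a probe set of their own. *H2-Q4* and *H2-Q5* had 2 probe sets each, so the 10 genes were measured by 12 probe sets. RNA of cultured cerebral cells, labelled primary astrocytes, from brains of 3-day-old C3H/He pups was hybridized to 4 Affymetrix Mouse Gene 2.0 ST arrays. Cells of this strain were left without an agent (control) or were given IFNγ (250 IU/mL), benztropine (2.0 μM) or both at these doses, and exposure lasted 48 h. Benztropine is an antagonist of muscarinic acetylcholine receptors used in Parkinson's disease and proposed as a remyelination agent. Each array held RNA mixed in equal amounts from 3 independent cultures, so there was 1 array per condition and no spread between cultures could be measured.

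MHC class I molecules display peptides from inside the cell to CD8+ T cells and to receptors of natural killer cells. A molecule consists of a polymorphic heavy chain, β2-microglobulin and a peptide. Classical heavy chains such as H2-K are found on most nucleated cells but are scarce on resting brain cells, and nonclassical chains of the Q, T and M regions present a narrower set of ligands. IFNγ reaches class I genes through interferon-responsive elements, which IRF1 binds, and through NLRC5, which has no DNA-binding domain of its own and is held at the X and Y boxes of class I promoters by RFX, CREB/ATF1 and NF-Y proteins.

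The values are log2 signals, and their median over 41345 probe sets ran from 6.65 to 6.68 over the arrays. Probes differ in how brightly they bind, so a probe set is compared only with itself across arrays. Background was set per array at the 95th percentile of 1405 probe sets for olfactory and vomeronasal receptors, which lay between 6.64 and 6.69. Markers of astrocytes were above background for 10 of 10 genes in control, those of microglia and macrophages for 12 of 12, and those of T and NK cells for 1 of 10. Of all named probe sets 57.2% were above background in control. Markers of microglia and macrophages were thus above background too. A change in the number of cells of a type cannot be told apart here from a change in RNA per cell. A difference between a pair of arrays was called when it passed 1.5-fold, a log2 difference of 0.585. Each agent had 2 pairs of arrays with no array in common. For IFNγ these were IFNγ against control and the combination against benztropine alone, and for benztropine they were benztropine against control and the combination against IFNγ alone. The control array serves both agents. A limma fit with additive terms for the 2 agents over the 4 arrays gave each probe set an estimate, a standard error (SE) and a p-value adjusted by Benjamini-Hochberg over 25341 probe sets with a symbol. This fit has 1 residual degree of freedom and takes any departure from adding as error.

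Class I promoters are known as the point where IFNγ signals reach these genes, and their letters are shown for the 6 of 10 genes with an entry in the RefSeq table used here. The sequences are the 250 bases before the annotated start, 5′ to 3′ on the gene's strand, from RefSeq of the C57BL/6J build GRCm38.p6. Capitals mark matches to an interferon-stimulated response element, as GAANNGAAA or, in a longer spelling, GAAA, any 2 bases and GAAA, on either strand. The longer spelling was added after the sequences had been read.
H2-K1 (chr17:34000334-34000583, minus strand): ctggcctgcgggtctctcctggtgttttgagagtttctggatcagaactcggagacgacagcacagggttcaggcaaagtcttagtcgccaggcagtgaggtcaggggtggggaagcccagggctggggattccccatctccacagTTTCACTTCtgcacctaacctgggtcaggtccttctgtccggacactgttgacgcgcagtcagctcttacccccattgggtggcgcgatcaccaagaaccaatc
H2-Q4 (chr17:35379367-35379616, plus strand): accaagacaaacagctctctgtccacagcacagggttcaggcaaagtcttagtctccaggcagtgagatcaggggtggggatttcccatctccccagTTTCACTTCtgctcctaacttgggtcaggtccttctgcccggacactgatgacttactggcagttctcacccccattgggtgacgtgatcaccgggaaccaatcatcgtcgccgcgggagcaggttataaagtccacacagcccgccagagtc
H2-M3 (chr17:37269984-37270233, plus strand): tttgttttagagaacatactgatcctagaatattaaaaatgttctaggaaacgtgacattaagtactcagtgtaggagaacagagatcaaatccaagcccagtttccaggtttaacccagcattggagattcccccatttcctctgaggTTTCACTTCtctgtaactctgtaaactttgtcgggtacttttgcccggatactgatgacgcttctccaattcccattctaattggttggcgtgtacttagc
H2-T23 (chr17:36032702-36032951, minus strand): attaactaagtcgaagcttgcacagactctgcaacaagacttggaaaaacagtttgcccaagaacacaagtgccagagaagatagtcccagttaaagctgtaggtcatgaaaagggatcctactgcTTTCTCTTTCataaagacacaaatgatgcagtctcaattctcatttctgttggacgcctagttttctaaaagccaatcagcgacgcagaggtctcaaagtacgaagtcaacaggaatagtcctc
B2m (chr2:122147437-122147686, plus strand): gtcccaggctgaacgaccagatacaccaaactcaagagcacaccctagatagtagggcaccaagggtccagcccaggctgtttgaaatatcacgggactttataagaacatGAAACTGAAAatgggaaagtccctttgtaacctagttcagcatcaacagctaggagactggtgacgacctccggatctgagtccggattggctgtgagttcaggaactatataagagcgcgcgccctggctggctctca
H2-M2 (chr17:37483555-37483804, minus strand): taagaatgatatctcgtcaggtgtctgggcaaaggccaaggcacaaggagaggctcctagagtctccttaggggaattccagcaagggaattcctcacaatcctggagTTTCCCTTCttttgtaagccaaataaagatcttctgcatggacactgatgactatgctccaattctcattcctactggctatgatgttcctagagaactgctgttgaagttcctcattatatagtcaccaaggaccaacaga
The shorter spelling was found in 4 of 6, *H2-K1*, *H2-Q4*, *H2-M3* and *H2-M2*. The longer was found in *H2-T23* and *B2m*. Since it was added after reading, that every promoter holds a match follows in part from this choice. Of 32851 promoters of the same length in the table, 6.31% held the shorter and 2.98% the longer. In *H2-K1*, *H2-Q4* and *H2-M3* the matched letters were the same 9 bases, and in *H2-M2* they differed. The Y box core CCAAT was present on either strand in 6 of 6, against 33.8% of all promoters. TGACG, the core of an X2 box, was present on either strand and at any position in 5 of 6, against 17.8%. In *H2-M2* it was on the opposite strand, 236 bases before the start, with CCAAT at 84. In *H2-Q4* it was at 73, between the CCAAT matches at 79 and 55. Whether a match lies in an X2 box was not tested. *H2-T23* was the one without TGACG. The κB sequence, GGGGA, any 2 bases and CCC, was found in *H2-K1* (1.41% of all promoters). The GAS motif, TTCNNNGAA, was found in 1 of 6, *H2-M3* (7.02% of all promoters). RefSeq gives 2 starts of *H2-K1* that lie 14 bases apart, and the sequence before the more downstream start is shown. A match is a description of the letters and not a measured binding site. C3H/He mice carry the k haplotype of the H2 complex and C57BL/6J the b haplotype, so the alleles in these cells may differ from the letters shown, and how well the array's probes match the k alleles was not tested.

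Exposure to IFNγ raised the signals of *H2-K1*, *H2-T23*, *H2-T24*, *H2-M3*, *H2-Q4* (by probe set 17337100) and *Nlrc5*. *H2-Q5* passed 1.5-fold too, but its probe set 17337110 was below background on all arrays, and 17337118 on both arrays without IFNγ. None of the 10 genes passed 1.5-fold downward, as 0.28% of all named probe sets did against control and 0.347% in the other pair. Against control, 8 of the 12 probe sets, of 7 genes, passed 1.5-fold upward, where 1.55% of all named probe sets did. With both agents against benztropine alone the same 8 passed (1.4% of all), and 1.02% of all probe sets passed in both pairs. With probe sets below background on both arrays of a pair left out, 7 of 9 passed against control and 7 of 10 in the other pair. Of all named probe sets kept, 309 and 262 passed. The median log2 difference of the 12 was 1.17 and 0.91, beside −0.00101 and −0.034 over all. In the additive limma fit the same number, 8 of 12, were higher at an adjusted p under 0.05, against 0.983% of all probe sets, and 0 were lower, against 0.0434%. At an unadjusted p under 0.05, 10 were higher and 0 lower, against 5.96% and 6.42% of all. When probe sets without a symbol were kept in the fit, 0 of the 12 passed, with adjusted p-values from 0.0539 for *H2-Q4* upward.

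*H2-K1*, the classical heavy chain, gave log2 signals of 9.35 (control), 11.78 (IFNγ), 9.43 (benztropine) and 11.94 (both). The 2 arrays with IFNγ lay above the 2 without it. Its signal rose 5.40-fold with IFNγ and 5.70-fold with both agents against benztropine alone, and the additive estimate was 2.47 ± 0.07 (log2, SE, 4 arrays) with an adjusted p of 0.000764 by limma. It was above background on all arrays.

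*Nlrc5* gave 6.59 (control) and 6.52 (benztropine) on the log2 scale, both below background, and 8.63 (IFNγ) and 8.51 (both). It rose at least 3.86-fold with IFNγ against control and at least 3.62-fold with both agents against benztropine alone, where the bound is taken from the background level. The estimate was 2.02 ± 0.07 (log2, SE) with an adjusted p of 0.00126 by limma. The transactivator thus passed from below the background level to above it in both pairs. Its log2 difference with benztropine was −0.07 against control and −0.13 against IFNγ alone.

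*B2m* encodes the light chain of class I molecules. Its log2 signals were 13.10 (control), 13.50 (IFNγ), 13.10 (benztropine) and 13.52 (both). The 2 arrays with IFNγ lay above the 2 without it. The differences with IFNγ, 1.32-fold and 1.34-fold, did not pass 1.5-fold. The estimate was 0.41 ± 0.07 (log2, SE), and its adjusted p of 0.133 missed 0.05 in the limma fit, but was 0.0258 when probe sets below background on all arrays were left out and 0.00072 with a variance trend. The highest signal on any array was 13.52, and how the scale behaves near it was not tested.

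**Figure D1:**
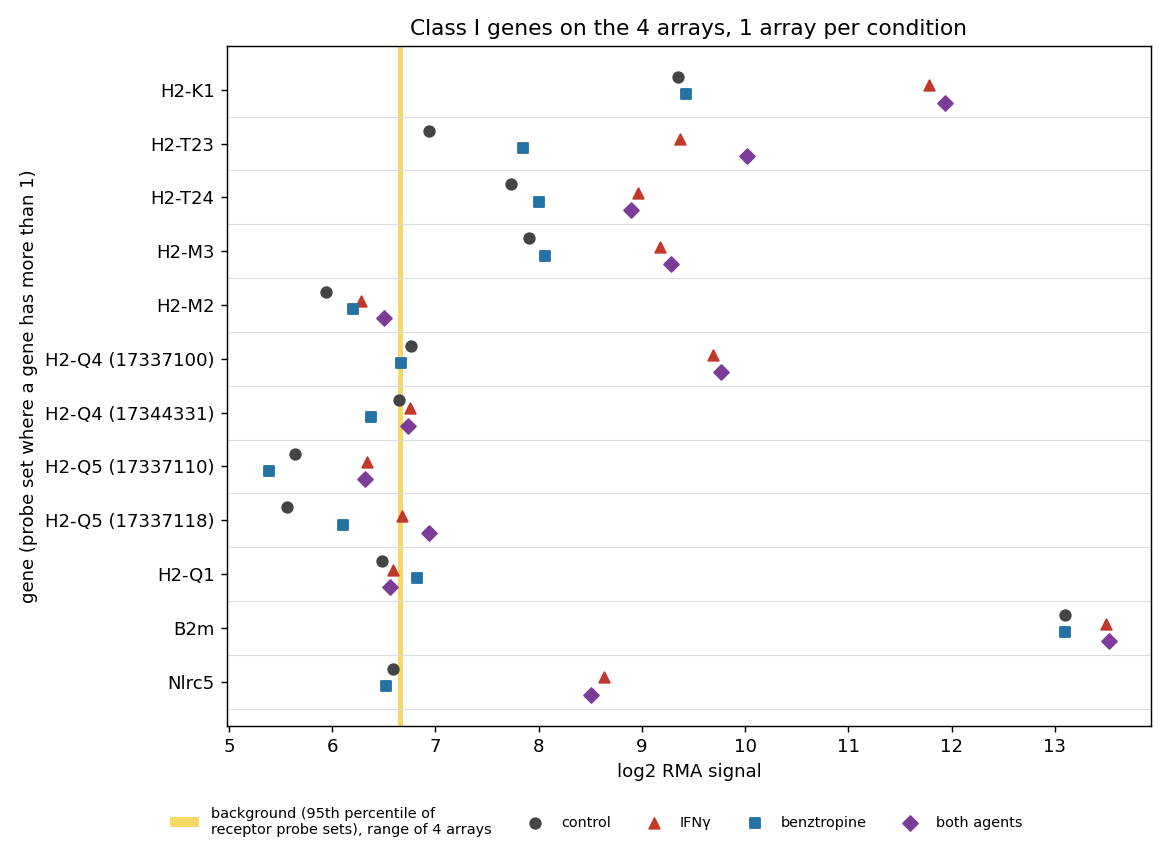
Log2 RMA signal (x axis) of each probe set of the 10 genes (y axis) on the 4 arrays, 1 point per array, with the band of background levels from 6.64 to 6.69. The points with IFNγ (triangles) and with both agents (diamonds) lie right of both others for every probe set but that of *H2-Q1*. The share of all probe sets on the array with this order was not counted. *H2-M2* and *H2-Q5* (17337110) stay below the band on all arrays.

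Of the T and M regions, *H2-T24* and *H2-M3* rose in both pairs and *H2-M2* stayed below background. *H2-T24*, a gene near *H2-T23*, had log2 signals of 7.73 (control), 8.96 (IFNγ), 8.01 (benztropine) and 8.89 (both). It rose 2.35-fold and 1.85-fold in the pairs with IFNγ, with an estimate of 1.06 ± 0.11 (log2, SE) and an adjusted p of 0.0275 by limma. *H2-M3*, which presents N-formylated peptides of bacteria and mitochondria, had 7.91, 9.18, 8.06 and 9.28 in the same order. It rose 2.41-fold and 2.32-fold, with an estimate of 1.24 ± 0.07 (log2, SE) and an adjusted p of 0.00503 by limma. For both genes the 2 arrays with IFNγ lay above the 2 without it.

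*H2-M2*, a gene of the M region, had log2 signals of 5.94 (control), 6.28 (IFNγ), 6.20 (benztropine) and 6.51 (both), each below background. Its differences with IFNγ were 0.34 and 0.30 on the log2 scale, with an adjusted p of 0.213 by limma, and no fold is given. Its promoter was among those with the shorter response element, as were those of *H2-K1*, *H2-Q4* and *H2-M3*.

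In the Q region the probe sets of *H2-Q4* differed from each other, as did those of *H2-Q5*. The first probe set of *H2-Q4* (17337100) had log2 signals of 6.76 (control), 9.69 (IFNγ), 6.67 (benztropine) and 9.77 (both). It rose 7.61-fold and 8.59-fold, the largest differences among the 12 probe sets, with an estimate of 3.01 ± 0.08 (log2, SE) and an adjusted p of 0.000618 by limma. Its signals without IFNγ were above the 95th percentile of the receptors but below the 99th, against which the rises are at least 4.18-fold and at least 5.09-fold. The second probe set of *H2-Q4* (17344331) had 6.65, 6.75, 6.38 and 6.74, with differences of 0.11 and 0.36 and an adjusted p of 0.409. The average of both would give log2 differences of 1.52 and 1.73, and which of the 2 measures the transcript was not tested.

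*H2-Q5* is annotated as a transcribed pseudogene in RefSeq. Its probe set 17337110 had log2 signals of 5.64 (control), 6.34 (IFNγ), 5.39 (benztropine) and 6.31 (both), each below background. Its probe set 17337118 had 5.56, 6.67, 6.10 and 6.93, and only the 2 arrays with IFNγ were above background. The log2 differences with IFNγ were 0.70 and 0.92 for the first and 1.11 and 0.83 for the second, past the threshold in both pairs, with adjusted p-values of 0.0369 and 0.026 by limma. A fold could be bounded only for 17337118 with both agents against benztropine alone, at least 1.22-fold. *H2-Q1* had 6.48, 6.59, 6.82 and 6.56, and was above background with benztropine alone. Its differences with IFNγ were 0.11 and −0.26 on the log2 scale, in opposite directions, with an adjusted p of 0.83.

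**Figure D2:**
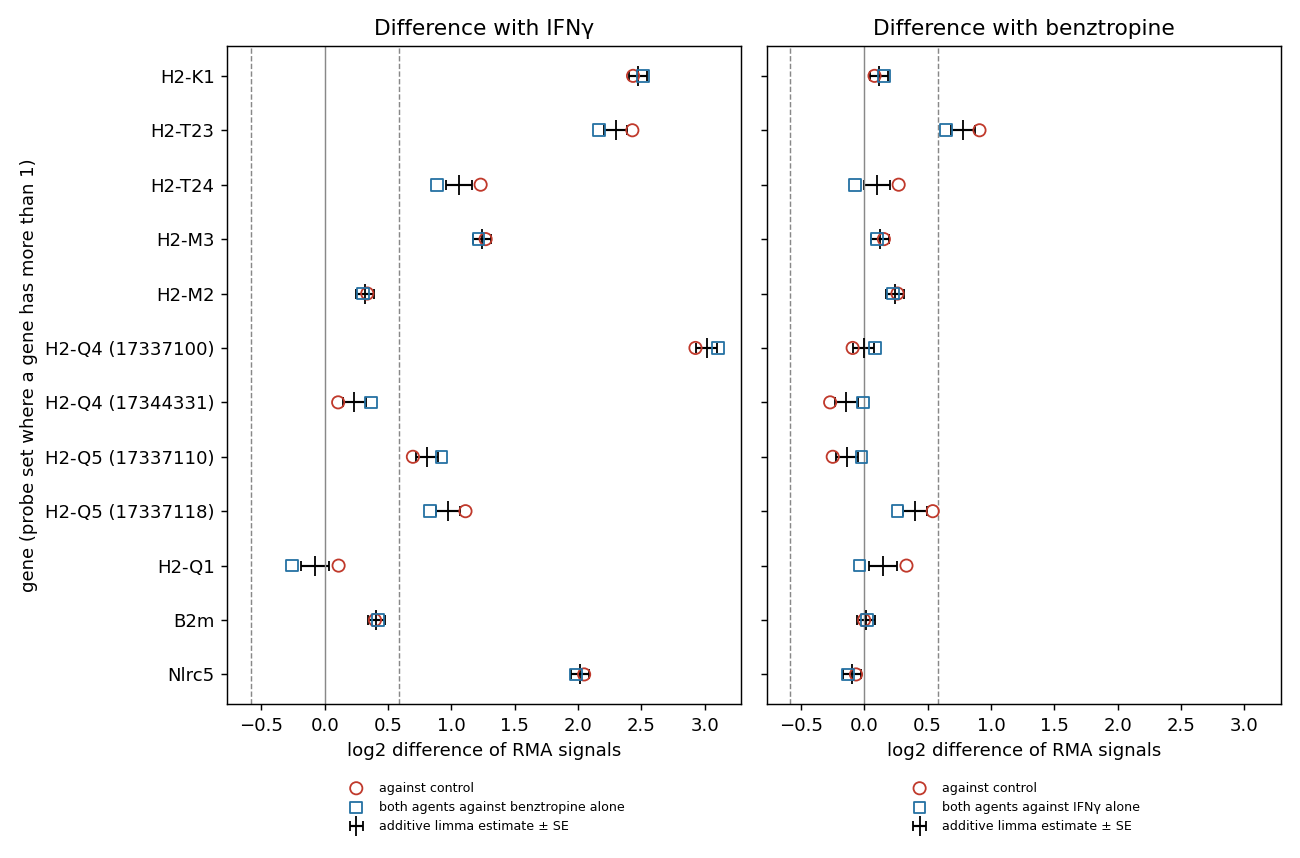
Log2 differences (x axis) of each probe set (y axis) with IFNγ (left) and with benztropine (right), as circles against control, squares in the presence of the other agent, and bars for the additive limma estimate ± SE over 4 arrays; dashed lines mark 1.5-fold. With IFNγ 8 of 12 probe sets lie past the right dashed line in both pairs, and with benztropine only *H2-T23* does.

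*H2-T23* encodes the heavy chain of Qa-1, which presents leader peptides of other class I chains to CD94/NKG2 receptors of natural killer and T cells. It was the one gene of the 10 that was called with both agents. Its log2 signal was 6.94 in control, 7.85 with benztropine, 9.37 with IFNγ and 10.01 with both agents, so each array with benztropine lay above its partner without it and both arrays with IFNγ above both without. It rose 5.38-fold with IFNγ against control and 4.48-fold with both agents against benztropine alone, with an estimate of 2.30 ± 0.09 (log2, SE) and an adjusted p of 0.00158 by limma. All 4 signals were above background, but that in control was below the 99th percentile of these receptors, against which the rise with IFNγ is at least 3.36-fold.

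With benztropine the signal of *H2-T23* was 1.88-fold higher against control and 1.56-fold higher in the presence of IFNγ. These differences, 0.91 and 0.65 on the log2 scale, were the 10th and 36th highest of 25341 in their comparisons. Against control 0.284% of all named probe sets passed 1.5-fold upward, against IFNγ alone 0.249%, and 5 probe sets, 0.0197%, in both pairs. The additive estimate was 0.78 ± 0.09 (log2, SE), the 3rd highest of all, with an unadjusted p of 0.000483 that ranked 4th. After adjustment over all probe sets it was 0.676, and limma called 0 probe sets for benztropine at 0.05, while 930 higher and 927 lower ones had an unadjusted p under 0.05. The rise passed the fold threshold in 2 separate pairs and failed the correction, as it did under every alternative of the fit that was run (adjusted p from 0.26 to 0.72). With the 99th percentile as background, the rise against control is at least 1.17-fold, and that against IFNγ alone is unchanged at 1.56-fold.

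The log2 difference of *H2-T23* with IFNγ was smaller by 0.26 in the presence of benztropine than in its absence. This departure from adding, −0.26, stands beside a standard deviation of 0.21 over all named probe sets, and with 1 array per condition it was not tested. On the log2 scale the departures of the 12 probe sets ran from −0.37 for *H2-Q1* to 0.26 for *H2-Q4* (17344331), with a median of −0.04 beside −0.03 over all.

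None of the other 11 probe sets passed 1.5-fold upward with benztropine in either pair, none of the 12 passed downward (0.182% and 0.276% of all did), and the median of the 12 was 0.12 and 0.05 on the log2 scale. The nearest to the threshold was *H2-Q5* (17337118), with 0.54 against control, where both signals were below background, and 0.26 against IFNγ alone. The other probe set of the gene, 17337110, had −0.25 and −0.02, and the mean of both had 0.15 and 0.12. For 17337118 the additive estimate was 0.40 ± 0.09 (log2, SE), with an unadjusted p of 0.00903 and an adjusted p of 0.676 by limma. *H2-K1* had differences of 0.08 and 0.16, *H2-M3* of 0.15 and 0.10, and *B2m* of −0.0013 and 0.02. A total of 3 probe sets, of *H2-T23*, *H2-M2* and *H2-Q5*, were higher at an unadjusted p under 0.05, where 3.67% of all probe sets were, and 0 were lower, where 3.66% were.

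**Figure D3:**
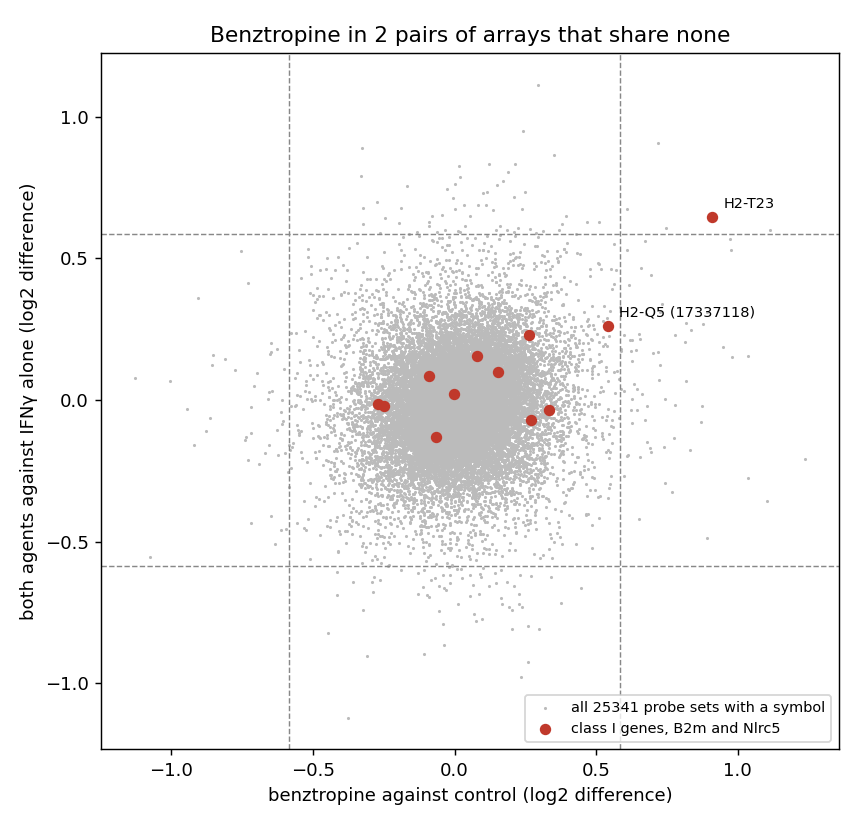
Log2 difference with benztropine against control (x axis) and with both agents against IFNγ alone (y axis) for 25341 probe sets with a symbol (grey) and the 12 of the class I genes (red), with dashed lines at 1.5-fold. The pairs share no array, and *H2-T23*, at 0.91 and 0.65, is the one red point past both upper lines.

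The probe set of the paralogs *H2-T22* and *H2-T9*, which cannot be assigned to 1 of them, rose with IFNγ, by 2.73 and 2.33 on the log2 scale. Its log2 signals were 7.26 in control, 7.75 with benztropine, 10.00 with IFNγ and 10.08 with both agents. Its difference with benztropine was 0.48 against control and 0.08 against IFNγ alone, neither past 1.5-fold. Neighbours of *H2-T23* were read only among protein-coding genes with a probe set of their own, so shared probe sets were passed over. The nearest such gene on one side, *H2-T24*, had 0.27 and −0.07, and the nearest on the other side, *Gm6034*, 0.13 and −0.03. The next such gene on that side, *Gm11127*, had 0.63 against control, past 1.5-fold with both signals below background, and 0.14 against IFNγ alone. *Gm10499*, further on, had 0.14 and 0.06 by probe set 17344690 and 0.17 and 0.45 by 17344688, whose signals were below background. Class I genes are close paralogs, and cross-hybridization between them was not tested. The shared probe sets of *H2-Q7*, *H2-Q8* and *H2-Q9* rose with IFNγ, by 1.86 and 1.68 (17337120) and by 1.81 in each pair (17337133) on the log2 scale, and that of *H2-Q6* and *H2-Q8* by 2.50 and 2.42. Probe set 17337133 was lower with benztropine, by −0.48 in each pair, which did not pass 1.5-fold. The probe set shared by *H2-Q2* and *H2-D1*, the other classical gene, had differences of 0.27 and 0.45 with IFNγ, with all 4 signals below background. That shared by *H2-T3* and *H2-T18* was below background on all arrays too, with differences of 0.02 and −0.32 with IFNγ and of 0.13 and −0.22 with benztropine.

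Markers of other cells were read on the same arrays. With benztropine against control the 12 markers of microglia and macrophages had a median log2 difference of 0.11, with the highest, 0.30, in *C1qa*. With both agents against IFNγ alone their median was 0.02, and 0 passed 1.5-fold in either pair (0.284% and 0.249% of all did upward). With IFNγ against control their median was 0.27, and *C1qb* and *Ptprc* passed 1.5-fold upward (1.55% of all did), by 0.64 and 0.65 on the log2 scale. With both agents against benztropine alone 0 passed (1.4% of all did upward). Of 6 probe sets for fibroblasts and leptomeninges, *Dcn*, which encodes a matrix proteoglycan, was 2.16-fold higher with benztropine against control and higher by 0.60 on the log2 scale with both agents against IFNγ alone, as 1 of the 5 probe sets past 1.5-fold in both pairs. *Dcn* was lower with IFNγ, by −0.90 and −1.41 on the log2 scale, with an adjusted p of 0.0481 by limma. In the same list *Lum* was higher by 0.89 on the log2 scale with benztropine against control, with both signals below background. *Pdgfra* differed with benztropine by 0.41 in the absence of IFNγ and by 0.30 in its presence. In the same order *Col1a1* had −0.05 and 0.07. *Col1a2* had 0.04 and −0.13 by probe set 17455801, and −0.17 and −0.07 by 17548532, whose signals were below background. The median of the 6 probe sets was 0.22 and 0.19. Of 4 markers of perivascular macrophages 2 passed 1.5-fold downward with both agents against benztropine alone (0.347% of all did), *Mrc1* at −0.68 and *Pf4* at −0.71, the latter with both signals below background. With IFNγ against control 0 of the 4 passed, with *Mrc1* at −0.04 and *Pf4* at −0.56. *Lyve1* had −0.56 and −0.51 in the pairs with IFNγ, and its signals on both arrays with IFNγ were below background. The 10 astrocyte markers had medians of −0.14 and −0.17 in the pairs with IFNγ and of −0.10 and −0.13 in those with benztropine. None of them passed 1.5-fold, where at most 1.55% of all did upward and 0.347% downward in a pair. All 10 were lower with both agents against benztropine alone, where the median over all was −0.034. The share of all that were lower was not counted. Of the T and NK cell list 1 of 10 genes was above background on every array. The part of these cells in the signals of the class I genes was not tested.

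By the Euclidean distance over the 3 log2 differences from control, among 13072 single-gene probe sets above background on all arrays, the genes most like *H2-T23* were the chemokine gene *Ccl12* (distance 0.69), *Cd274*, which encodes the checkpoint ligand PD-L1 (0.74), *Ifi204* (0.83), *Oasl2* (0.84) and *Irgm1* (0.85). *Oasl2* was higher by 0.81 with benztropine against control, and the other 4 by 0.21 to 0.53. That difference was among the 3 by which these genes were picked, so the values are no separate result. From control, *Oasl2* differed by 2.10 with IFNγ and 2.30 with both agents, *Ccl12* by 2.21 and 2.54, and *Ifi204* by 2.09 and 2.51. *Cd274* differed by 2.82 and 2.84, and *Irgm1* by 2.85 and 2.83. *H2-K1* had closer neighbours, the chemokine gene *Ccl5* at 0.25, the guanylate-binding protein genes *Gbp9* at 0.37 and *Gbp7* at 0.43, the peptide transporter gene *Tap1* at 0.48 and *Ifi204* at 0.48. Each distance rests on 4 arrays. The probe sets past 1.5-fold upward in all 4 comparisons numbered 2 of 25341 (0.00789%), *H2-T23* and *LOC100041057*, and the signal of the latter in control was below background.

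Of 20 listed factors that act at class I promoters 17 were measured, by 18 probe sets. With IFNγ 4 passed 1.5-fold upward against control and 5 in the other pair, where 1.55% and 1.4% of all probe sets did. *Stat2* rose 3.56-fold and 2.89-fold in the 2 pairs, *Irf1* 3.34-fold and 4.50-fold, *Ciita*, the transactivator of class II, 1.75-fold and 1.82-fold, and *Irf9* 1.72-fold and 1.59-fold. *Irf8* rose 1.56-fold with both agents against benztropine alone and differed by 0.58 on the log2 scale against control, just under the threshold. The median of the list was 0.15 and −0.02 on the log2 scale. *Irf2*, another interferon regulatory factor gene, differed by 0.37 and 0.39, and the RFX gene *Rfx5* by 0.15 and −0.07. In the limma fit 5 of the 18 probe sets were higher and 0 lower.

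Of 13 genes that supply and load peptides, measured by 14 probe sets, 9 passed 1.5-fold upward in each of the pairs with IFNγ, where 1.55% and 1.4% of all probe sets did. By limma 9 of the 14 probe sets were higher and 0 lower, against 0.983% and 0.0434% of all. *Tap1*, a subunit of the peptide transporter, rose 4.53-fold and 4.13-fold, and *Tap2*, the other subunit, 2.55-fold and 2.48-fold. The immunoproteasome genes *Psmb9*, *Psmb10* and *Psmb8* rose 3.74-fold, 3.50-fold and 3.45-fold against control. *Psme1*, a proteasome activator gene, rose 1.79-fold, and *Erap1*, which encodes a peptide-trimming enzyme, and *Tapbpl*, which encodes a tapasin-related protein, rose by 1.00 and 0.74 on the log2 scale against control and by 0.77 and 0.75 in the other pair. *Tapbp*, which encodes tapasin, rose 1.94-fold by probe set 17336228 and differed by 0.04 on the log2 scale by 17343675. *Psme2* was lower by −0.38 and −0.21, and the chaperone genes *Canx*, *Calr* and *Pdia3* did not pass 1.5-fold. None of the 14 probe sets passed 1.5-fold with benztropine in either pair, where 0.284% and 0.249% of all passed upward and 0.182% and 0.276% downward.

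Of 26 other heavy chain genes 14 had a probe set of their own, and of these 15 probe sets 6 were above background on at least 1 array. *H2-T10* alone rose with IFNγ, 1.69-fold and 1.51-fold, with an adjusted p of 0.0481 by limma, and the median of the list was 0.04 on the log2 scale in each pair. Of 10 measured class I-like genes, such as *Mr1* and *Fcgrt*, 0 passed 1.5-fold with either agent in any pair, and differences with IFNγ against control ran from −0.41 for *H60b*, a ligand of the NKG2D receptor, to 0.27 for *Fcgrt*. The 6 genes of the IFNγ receptor, its kinases and their SOCS inhibitors passed 1.5-fold in none of the comparisons. Over all named probe sets, 0.249% to 1.55% passed upward and 0.182% to 0.347% downward, depending on the pair. So few passed that a count of 0 in such short lists says little about their genes.

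**Figure D4:**
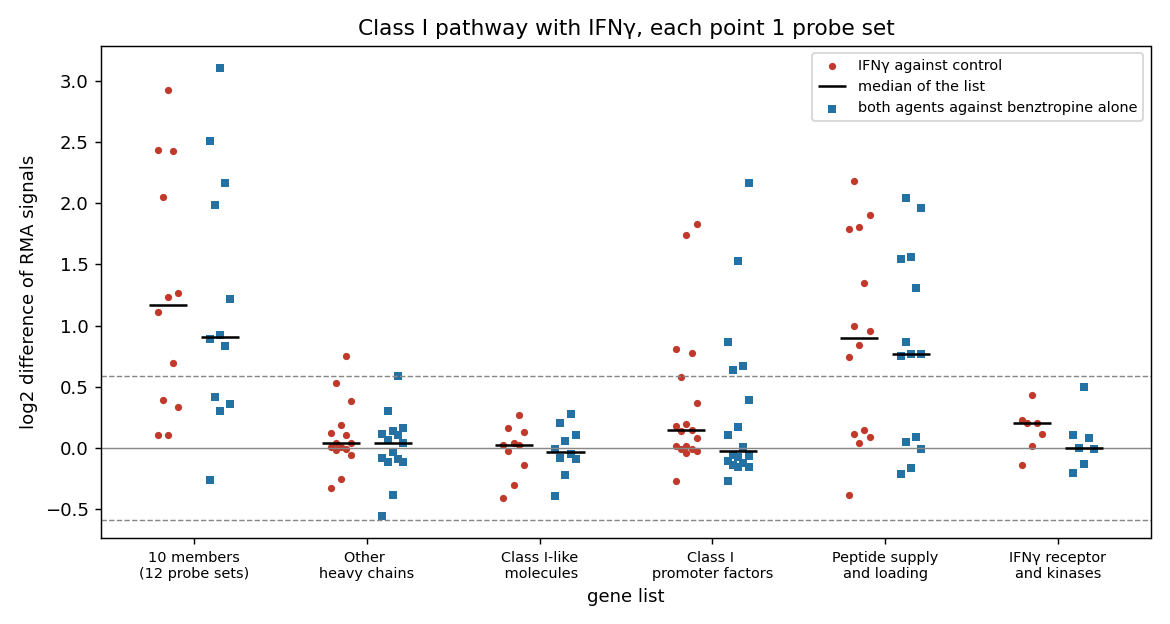
Log2 differences (y axis) with IFNγ against control (circles) and with both agents against benztropine alone (squares) for the 12 class I probe sets and 5 gene lists (x axis), each point 1 probe set, bars the medians and dashed lines 1.5-fold. The class I probe sets and the peptide loading list have medians of 1.17 and 0.90 against control, and the other 4 lists lie between 0.03 and 0.20.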

How the data were processed

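Each of the 4 conditions had 1 array (Affymetrix Mouse Gene 2.0 ST). The authors' deposited values are log2 signals made with RMA in Affymetrix Expression Console, that is, after background correction, quantile normalization across the arrays and a summary of the probes. They were used as deposited, and a shift common to most genes would be evened out by that normalization. Their genome build is not given in the sources used here.

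Of 41345 probe sets, 25341 carry a gene symbol in GEO's platform annotation (23521 with 1 symbol, 1820 with several), and 16004 without were left out, as in the study's methods. Groups came from the agent label. Calls used 1.5-fold with no test. Additive effects were fitted with limma 3.58.1 in R 4.3.3 (moderated two-sided test, prior degrees of freedom 3.79, 1 residual), and the steps were tested on simulated data. A fold against a signal below background is a bound taken from the background level. Precision is limited by the number of arrays, and p-values test each agent's additive effect against 0, with departures from adding as the only residual error.

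The members, lists and tests were chosen with earlier results of these data known. All 10 members are named, with list genes past the threshold or first or last in their list, the 5 genes nearest to *H2-T23* and to *H2-K1*, and genes past 1.5-fold in all 4 comparisons; other named genes were chosen after their values were seen. The genes nearest to *Nlrc5* are not given, since its control signal was below background, and list genes first or last are named only where the list's range is given. Genes of the lists with no probe set of their own were not analysed here, nor was the real-time PCR. Alternatives were a threshold of 2-fold, 1 value per symbol, filters on background, renewed quantile normalization, removal of a loess trend, other sets of probe sets, and, in the limma fit, robust variances, a variance trend and an adjusted p under 0.10. Python 3.11.15 with numpy 2.4.6, pandas 2.3.3 and matplotlib 3.10.9 was used.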

Additional observations from a re-analysis of the deposited data

Results flagged for a closer look

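For 4 probe sets the effect of an agent pointed in opposite directions without and with the other agent, and these differences were not tested. With benztropine, *H2-T24* differed by 0.27 against control and by −0.07 against IFNγ alone, a departure from adding of −0.34 on the log2 scale. *H2-Q4* (17337100) differed by −0.09 and 0.08, a departure of 0.18, and *B2m* by −0.0013 and 0.0227, a departure of 0.024. *H2-Q1* differed by 0.33 and −0.04 with benztropine and by 0.11 and −0.26 with IFNγ, a departure of −0.37. None of these differences passed 1.5-fold, and the standard deviation of the departure over all named probe sets was 0.21.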

How the results depend on the processing

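Of 88 counts of members under the alternatives, 84 stayed within 1.5 times the value given. Many of these were 0 in every setting, namely all counts of members lower and all limma counts for benztropine. The total thus says little about how firm the other counts are. With a threshold of 2-fold, 7 of the 12 probe sets were higher with IFNγ against control and 5 with both agents against benztropine alone. Of all 25341 named probe sets, 172 and 141 were. With benztropine 0 of the 12 were higher in either pair, where 5 of all were against control and 1 against IFNγ alone. So few passed that 0 of 12 says little about the members. With probe sets without a symbol kept in the limma fit, 0 members and 14 probe sets in all were called higher with IFNγ, where the fit on named probe sets called 8 and 249. A variance trend called 9 and 560, and a filter on background 8 and 451. The limma estimate of benztropine for *H2-Q4* (17337100), −0.0042 on the log2 scale, became 0.0054 after renewed quantile normalization, with adjusted p-values of 0.996 and 0.995. No paired analysis was possible because each condition has 1 array, and for the same reason no replicate could be left out.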
